A study of Mus musculus with 18 samples.

Results

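The genes described here are 47 mitosis and G2/M genes, whose mRNAs mark cells preparing for or passing through division, in cultured mouse bone marrow macrophages. They were taken by symbol from a list, not by their measured values, and all 47 were found among the 54532 genes of the table. RNA was sequenced from macrophages of mice 2 to 3 months old whose Smad1 alleles are flanked by loxP sites (Smad1 fl/fl), a state that every group shares. As labelled, the floxed-labelled groups carry those alleles alone, and the knockout-labelled groups (MyS1KO) also carry LyzM-Cre. This is a Cre recombinase driven by the lysozyme M gene in myeloid cells. Each label had 3 groups: untreated, TGF-β1 at 10 ng/ml for 4 h and BMP4 at 50 ng/ml for 4 h, each with 3 libraries numbered 1 to 3 in the labels. Marrow cells had been expanded in CSF-1, first at 12 and then at 120 ng/ml, grown to confluence and kept for about 16 h in serum-free medium before treatment. The comparisons ask how each ligand, and the knockout label, changed the levels of these genes.

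CSF-1 is the growth factor that drives macrophage precursors through the cell cycle. TGF-β1 and BMP4 are ligands that signal mainly through different receptor-activated SMAD proteins, with SMAD1 mainly, but not only, on the BMP branch. Entry into mitosis depends on CDK1 bound to A- and B-type cyclins. Condensin then compacts the chromosomes, kinetochores attach them to the spindle, the anaphase-promoting complex with CDC20 destroys securin and cyclin B, and separase cuts the cohesin that holds sister chromatids together. Transcription of most of these genes peaks late in the cycle and is tied to a paired promoter arrangement: a CCAAT box, bound by NF-Y, and a cell cycle homology region (CHR), bound by the MuvB core in complexes that either repress the gene or, with B-MYB and FOXM1, activate it.

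RefSeq promoter windows of build GRCm38.p6, from 250 bases before to 50 after the annotated start, were matched by symbol for 39 of the 47 genes (41 windows). CCAAT, searched on both strands, was in 78.0% of these windows and in 37.4% of all 32851 windows. The CHR letters TTTGAA, on either strand, were in 78.0% against 17.9%, and the variant TTCGAA in 7.32% against 1.56%. A window with CCAAT and either CHR form together made up 70.7% against 7.52% of all windows. The E2F-type letters GCGGGAA or GCGCGAA were in 7.32% of the members' windows and 6.0% of all windows, on either strand, so these letters were about as frequent in the members as elsewhere. A match is a description of letters and does not show binding.

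The 250 bases before the start are shown for the 4 genes that TGF-β1 moved most among those with a window (Espl1, Cks2, Prc1, Kif23) and for 2 genes with the paired arrangement that TGF-β1 did not move past the test (Cdc20, Ccnb2), with capitals marking CCAAT or its reverse complement ATTGG and TTTGAA.
Espl1, chr15:102296043-102296292, plus strand: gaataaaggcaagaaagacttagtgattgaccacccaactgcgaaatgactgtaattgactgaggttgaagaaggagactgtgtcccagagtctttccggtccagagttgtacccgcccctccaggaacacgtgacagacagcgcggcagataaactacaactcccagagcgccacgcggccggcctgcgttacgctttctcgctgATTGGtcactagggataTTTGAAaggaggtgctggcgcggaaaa
Cks2, chr13:51644982-51645231, plus strand: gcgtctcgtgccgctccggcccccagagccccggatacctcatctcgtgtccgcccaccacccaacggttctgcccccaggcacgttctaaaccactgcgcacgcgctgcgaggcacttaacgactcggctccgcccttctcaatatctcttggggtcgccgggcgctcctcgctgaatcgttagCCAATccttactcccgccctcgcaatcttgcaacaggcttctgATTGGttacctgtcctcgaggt
Prc1, chr7:80294201-80294450, plus strand: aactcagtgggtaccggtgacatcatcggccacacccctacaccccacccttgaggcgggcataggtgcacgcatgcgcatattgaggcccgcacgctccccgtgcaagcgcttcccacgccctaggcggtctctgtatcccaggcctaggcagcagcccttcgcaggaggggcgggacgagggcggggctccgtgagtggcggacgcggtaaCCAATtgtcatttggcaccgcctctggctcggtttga
Kif23, chr9:61946800-61947049, minus strand: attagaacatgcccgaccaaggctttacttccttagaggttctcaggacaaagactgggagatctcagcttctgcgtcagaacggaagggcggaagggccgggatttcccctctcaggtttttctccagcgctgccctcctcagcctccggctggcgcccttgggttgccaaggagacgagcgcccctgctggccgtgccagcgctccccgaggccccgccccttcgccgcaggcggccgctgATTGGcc
Cdc20, chr4:118437344-118437593, minus strand: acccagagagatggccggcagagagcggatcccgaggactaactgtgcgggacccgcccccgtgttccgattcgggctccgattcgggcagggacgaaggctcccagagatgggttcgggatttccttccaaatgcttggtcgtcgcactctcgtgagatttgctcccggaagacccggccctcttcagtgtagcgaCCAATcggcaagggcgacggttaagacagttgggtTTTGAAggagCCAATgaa
Ccnb2, chr9:70421555-70421804, minus strand: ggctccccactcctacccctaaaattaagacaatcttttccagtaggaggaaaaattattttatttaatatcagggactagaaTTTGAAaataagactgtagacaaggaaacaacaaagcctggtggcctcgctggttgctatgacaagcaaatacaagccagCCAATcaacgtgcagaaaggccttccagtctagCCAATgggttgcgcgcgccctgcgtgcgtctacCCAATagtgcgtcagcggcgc
Counting the bases between a motif and the start, Espl1 had 1 CCAAT box at 39 bases and 1 CHR at 21 bases, and Cdc20 had CCAAT boxes at 48 and 3 bases and a CHR at 12 bases. Ccnb2 had 3 CCAAT boxes at 82, 49 and 16 bases and a TTTGAA at 161 bases, farther from the start than these boxes. Its full window holds 2 TTTGAA, so the other one ends after the start. Cks2 had 2 CCAAT boxes, at 60 and 17 bases, Prc1 had 1 at 32 bases and Kif23 had 1 at 2 bases. Cks2, Prc1 and Kif23 had no CHR letters in these 250 bases, but the full windows of Prc1 and Kif23 hold a TTTGAA that ends after the start. Cdc20 and Ccnb2 were chosen for holding both motifs, so these sequences cannot compare genes that TGF-β1 moved with genes that it did not.

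All 47 genes passed the filter on low counts and entered the fit of 14684 genes. Their counts ran from 76 for Ttk to 5031 for Mki67 in single libraries, from totals of 15153296 to 24639163 counts. The Smad1 mRNA level was 26.8, 26.0 and 26.0 CPM (counts divided by the effective library size) in knockout-labelled untreated cells and 30.0, 30.8 and 31.1 CPM in floxed-labelled untreated cells, a log2 difference of -0.22 (SE 0.08) that did not pass the edgeR test (adjusted p = 0.13). Lyz2, the gene that carries the Cre, was at 62.1, 37.6 and 74.3 CPM in the floxed-labelled libraries numbered 1 (untreated, TGF-β1, BMP4), while the other 6 floxed-labelled libraries lay at 8118 to 9872 CPM and the knockout-labelled ones at 13449 CPM or above. These 3 libraries go against the rest of their label, so the counts and medians that use them are also given for the 15 other libraries. Lyz2 was thus highest in the label said to carry the Cre, and Smad1 was not called lower in its untreated cells. Neither gene therefore checks the labels as a whole, and whether the labels hold was not tested. Among the marker lists fixed beforehand, the 11 macrophage genes summed to 11850 to 30881 CPM. They include Lyz2, and the 3 lowest sums (11928, 11850 and 12186 CPM) were those of the floxed-labelled libraries numbered 1. This range is therefore not a measure of macrophage content. No member of the mast cell, lymphoid or fibroblast list had a median of 1 CPM or more. The myeloid progenitor list (10 genes) summed to 20.5 to 58.8 CPM, with Ms4a3, Kit, Flt3 and Cebpe under 1 CPM. Inflammatory monocyte genes summed to 389 to 806 CPM and megakaryocyte genes to 153 to 264 CPM, with 3 of 5 under 1 CPM.

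Per gene length, the order of the genes in the 18 libraries was led by a chromosome structure gene, a chromosomal passenger complex gene and a cyclin. The level of Smc4, a condensin subunit, averaged 22.6 FPKM (fragments scaled to gene length and library total), that of Incenp, the scaffold of the chromosomal passenger complex, 20.4 FPKM, and that of Ccnb2, cyclin B2, 18.7 FPKM. Mki67, the proliferation marker that coats mitotic chromosomes, followed at 18.5 FPKM and Top2a, the topoisomerase that untangles sister chromatids, at 12.5 FPKM. The lowest were the kinetochore protein Nuf2 at 2.22 FPKM and the checkpoint kinase Ttk at 1.29 FPKM. The ranges of neighbours overlapped: Ccnb2 ran from 14.2 to 22.3 FPKM and Mki67 from 13.8 to 21.6 FPKM. By role, the median of the members' mean levels was highest for chromosome structure (10.6 FPKM, 6 genes) and lowest for centromere and kinetochore genes (2.92 FPKM, 6 genes). Across all libraries, Cenpa, the centromeric histone variant, varied least, with its highest CPM 1.26 times its lowest, and Espl1, which encodes separase, varied most, at 3.10 times.

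The mean log2 CPM of the 47 genes varied between libraries of 1 group by as much as between groups. In library order 1, 2, 3, it was 4.81, 4.40 and 4.72 in the floxed-labelled untreated group. The TGF-β1 group of that label had 4.85, 4.55 and 4.75, and its BMP4 group 4.52, 4.41 and 4.58. In the knockout-labelled groups it was 4.71, 4.41 and 4.70 (untreated), 4.80, 4.60 and 4.79 (TGF-β1), then 4.41, 4.66 and 4.87 (BMP4). The 6 group means lay between 4.50 (SD 0.09, n = 3) in floxed-labelled BMP4 and 4.73 (SD 0.11, n = 3) in knockout-labelled TGF-β1, with SDs of up to 0.23 within groups. In bulk RNA, fewer dividing cells and less mRNA per dividing cell cannot be told apart.

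The genes shared this spread between libraries. Library 2 was the lowest of its group for 45 of 47 genes in floxed-labelled untreated, 43 in floxed-labelled TGF-β1, 38 in floxed-labelled BMP4, 40 in knockout-labelled untreated and 41 in knockout-labelled TGF-β1. The knockout-labelled BMP4 group ran otherwise, with library 1 lowest for 44 genes and library 3 highest for 44. The members' median deviation from the group mean reached -0.25 and 0.22 on the log2 scale. The median over all genes tested lay at 0.00 or 0.01 in every library, but the scaling of the libraries itself keeps it near 0. Mki67 shows it: 195, 139.6 and 185 CPM in floxed-labelled untreated cells, and 156, 195 and 218 CPM in knockout-labelled BMP4 cells. Top2a had 132, 93.6 and 119.9 CPM in the first of these groups and 90.3, 111 and 139 CPM in the second. The summed CPM of the myeloid progenitor list in the knockout-labelled BMP4 libraries was 20.5, 24.4 and 41.1, and that of the neutrophil list (10 genes, 3 of them under 1 CPM) 98.8, 151 and 197, both in the same order as the mitotic genes. In the floxed-labelled untreated libraries the progenitor list summed to 28.7, 32.8 and 38.6 CPM, another order than that of the mitotic genes. The neutrophil list summed to 187, 134 and 210 CPM there, with library 2 lowest as in the mitotic genes. The lists' part in the result was not tested.

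**Figure D1:**
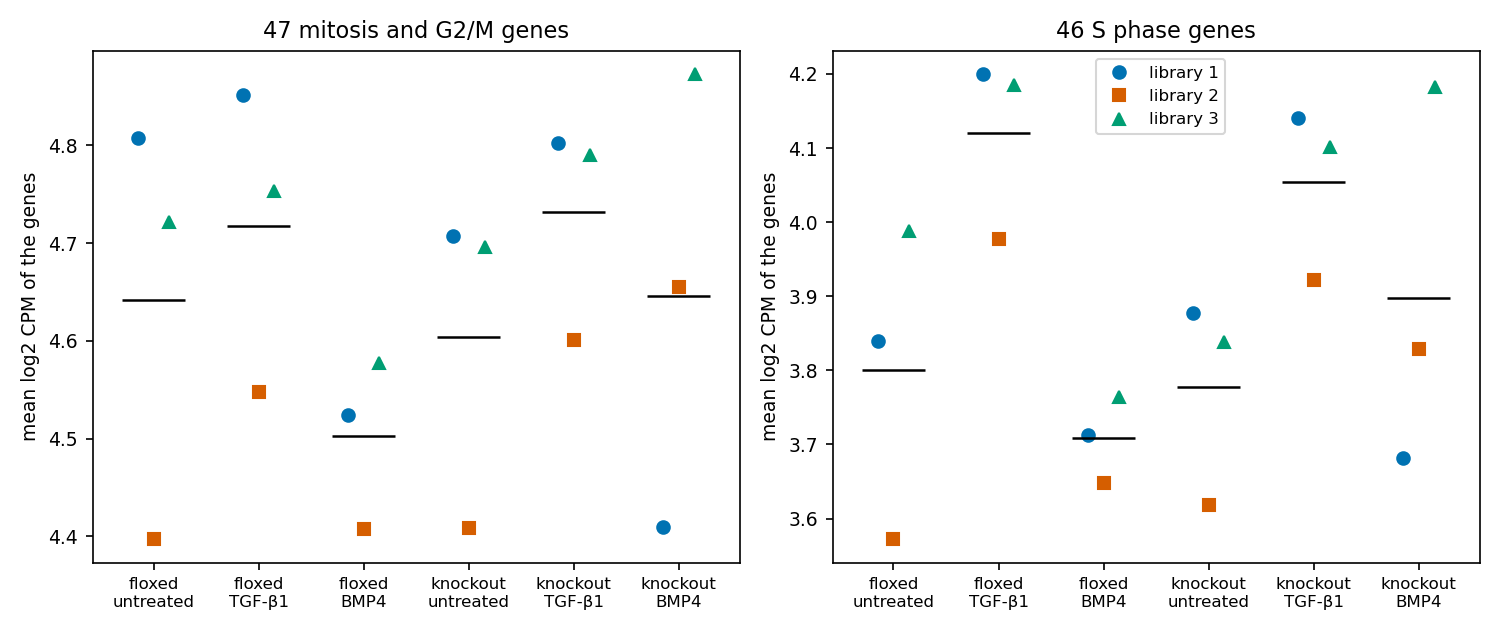
Mean log2 CPM of the 47 mitosis and G2/M genes (left) and of 46 S phase genes (right), y axis, in each library of the 6 groups, x axis; symbols mark the library number and black lines the group means of 3 libraries. On the left, library 2 is the lowest in 5 of 6 groups, and on the right every TGF-β1 mean is above its untreated mean.

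**Figure D2:**
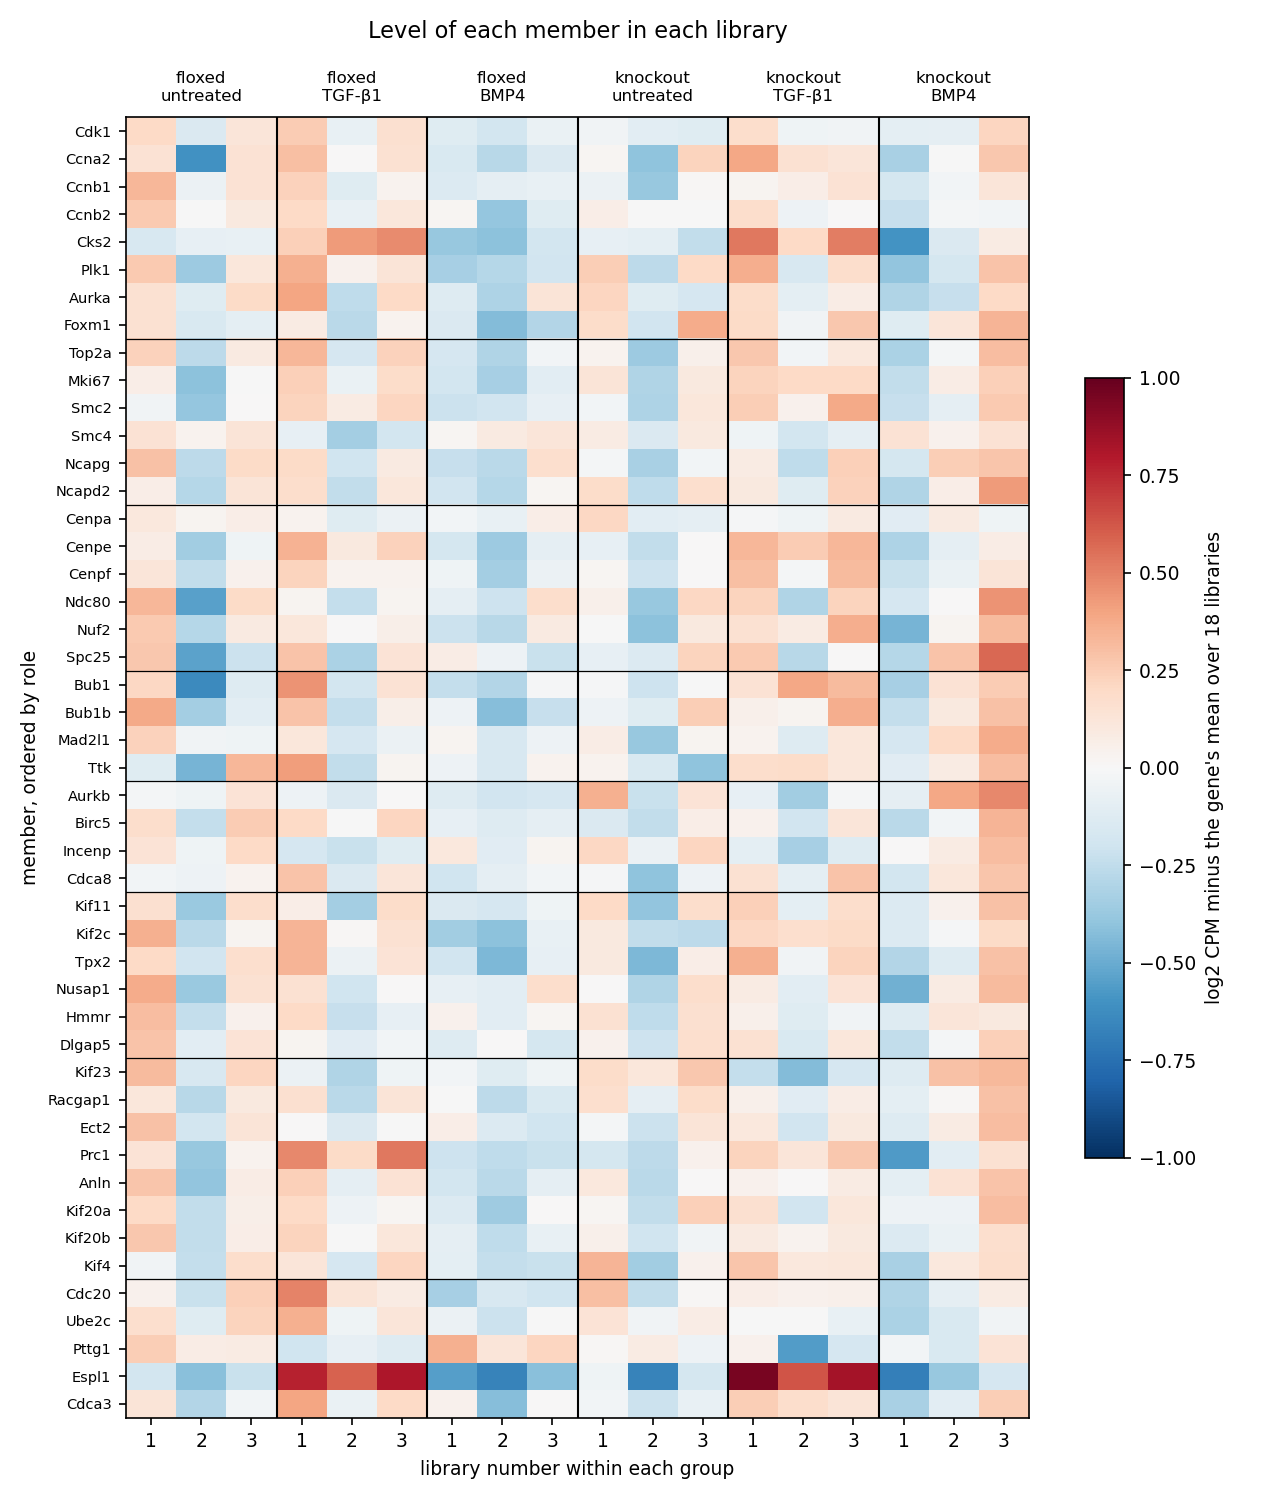
Colour gives the log2 CPM of each gene (rows, in the order of their roles) minus its mean over 18 libraries, in each library (columns, by group and number); red is higher and blue lower. Whole columns share a colour, as in knockout-labelled BMP4 libraries 1 and 3, and Espl1 stands out as a red row in both TGF-β1 groups.

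TGF-β1 changed a few of these genes in floxed-labelled cells, in both directions. Where library numbers were not paired, the group level stayed within the spread of the libraries. Espl1 (separase), Cks2 (a small subunit that binds CDK1), Prc1 (a microtubule bundler of the central spindle) and Cenpe (a kinetochore motor) rose, and Smc4 and Incenp fell. These are 4 of 47 genes higher and 2 of 47 lower, against 17% of all genes tested called higher and 16% called lower, so both shares were under the background. The median log2 change was 0.05 over the 47 genes and 0.00 over all genes tested, with 30 genes positive and 17 negative, where 50.6% of all genes were positive. In the 15 libraries the median was 0.04, with 4 genes called higher and 1 lower. Between libraries of the same number the mean log2 CPM was higher with TGF-β1 by 0.04, 0.15 and 0.03. With the library number as a block within label, 8 genes were higher and 4 lower, against 20.1% and 19.5% of all genes.

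In knockout-labelled cells TGF-β1 raised Espl1, Cks2 and Cenpe and lowered Kif23 (the kinesin of the centralspindlin complex) and Incenp. That is 3 of 47 genes higher and 2 of 47 lower, against 17.6% and 17.1% of all genes. The median log2 change was 0.09, with 38 genes positive and 9 negative, where 50% of all genes were positive. This lean moved with single libraries. Without untreated library 2 the median was 0.02, with 24 positive and 23 negative, and without TGF-β1 library 3 it was 0.04. Without untreated library 1 or 3 or TGF-β1 library 2 it was 0.18, 0.14 and 0.17. These fits kept the same-number partner of the library left out, so the medians also carry the spread shared by that number. With libraries paired by number, the mean log2 CPM was higher with TGF-β1 by 0.10, 0.19 and 0.09. The 2 labels share no library in these comparisons, and their log2 changes had the same sign for 33 of 47 genes, 27 positive and 6 negative, with Pearson r 0.86 and Spearman rho 0.71 across genes, which are not independent of one another. No gene passed the edgeR test of the difference between the 2 responses (0 of 47 higher and 0 lower, against 0.00681% and 0% of all genes; at an unadjusted p under 0.05 there were also 0, against 3.36%). The lowest unadjusted p there was that of Ccnb1 (difference 0.31, SE 0.16, edgeR adjusted p = 1).

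Espl1 (chr15:102296266-102324357 in mm10) responded most. Its level in floxed-labelled cells was 24.6, 20.9 and 23.9 CPM untreated and 47.7, 41.9 and 49.0 CPM with TGF-β1, and in knockout-labelled cells 27.1, 17.6 and 24.7 CPM untreated and 53.8, 43.1 and 49.8 CPM with TGF-β1. All 6 TGF-β1 libraries lay above all 12 others. The log2 change was 1.00 (SE 0.13, edgeR adjusted p = 7.57e-06) in the floxed label and 1.08 (SE 0.14, edgeR adjusted p = 3.85e-06) in the knockout label. With BMP4 its level was 19.1, 17.5 and 20.9 CPM in floxed-labelled and 17.4, 21.5 and 24.8 CPM in knockout-labelled cells, which overlapped the untreated libraries in the knockout label and reached only the lowest untreated library in the floxed label. Its inhibitor securin, encoded by Pttg1, did not pass the test (log2 change -0.27, SE 0.12, edgeR adjusted p = 0.0814 in the floxed and -0.23, SE 0.12, edgeR adjusted p = 0.156 in the knockout label).

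Cks2 (chr13:51645232-51650660) was a low-count gene, at 97 to 239 counts. It stood at 6.47, 6.84 and 6.86 CPM in floxed-labelled untreated cells and 8.52, 9.72 and 10.0 CPM with TGF-β1, a log2 change of 0.49 (SE 0.14, edgeR adjusted p = 0.011). In knockout-labelled cells it went from 6.83, 6.77 and 6.10 CPM to 10.4, 8.28 and 10.3 CPM, a log2 change of 0.55 (SE 0.15, edgeR adjusted p = 0.00592). The groups did not overlap in either label. Of all genes tested, 22.6% lay higher without overlap in the floxed and 22.8% in the knockout label. Of the 47 genes, 10.6% and 21.3% did, so such a gap was common with TGF-β1. Its partners moved less: the log2 change of Cdk1, the mitotic kinase, was 0.05 (SE 0.10) and 0.12 (SE 0.11) in the floxed and knockout labels, neither past the test.

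Cenpe (chr3:135212537-135273611) rose from 56.6, 42.4 and 52.2 CPM to 68.6, 57.8 and 63.2 CPM in floxed-labelled cells, a log2 change of 0.32 (SE 0.10, edgeR adjusted p = 0.0215). In knockout-labelled cells it rose from 50.8, 45.5 and 54.1 CPM to 67.8, 64.3 and 67.8 CPM, a log2 change of 0.41 (SE 0.11, edgeR adjusted p = 0.00516). Both groups of TGF-β1 libraries lay above their untreated ones without overlap. Prc1 (chr7:80294450-80316259) went from 28.9, 20.1 and 26.9 CPM to 36.5, 29.9 and 37.8 CPM in floxed-labelled cells, a log2 change of 0.46 (SE 0.14, edgeR adjusted p = 0.019). In knockout-labelled cells it went from 23.3, 21.8 and 27.1 CPM to 30.6, 28.6 and 31.6 CPM, and the log2 change of 0.33 (SE 0.15) did not pass the test (edgeR adjusted p = 0.0975), though the libraries did not overlap. Prc1 is overlapped by Rccd1, which averaged 51.3 counts against 526 for Prc1, and the strand of counting is not given in the sources used here, so a part of its value is uncertain. The same holds for 7 other members that overlap a gene on the opposite strand with a mean of at least 10 counts: Ccna2, Ncapg, Cdca8, Nusap1, Kif20a, Kif4 and Cdc20. Cdca8 shares 2264 bases with 9930104L06Rik, which averaged 306 counts against 424 for Cdca8, and Cdc20 shares 53 bases with Elovl1, which averaged 1687 counts against 392 for Cdc20.

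Of the genes that fell, Incenp (chr19:9872297-9899533) did so in both labels. Its level went from 72.2, 63.4 and 75.2 CPM to 58.4, 56.0 and 60.1 CPM in floxed-labelled cells (log2 change -0.27, SE 0.09, edgeR adjusted p = 0.0263) and from 75.6, 62.9 and 76.0 CPM to 61.1, 51.9 and 59.9 CPM in knockout-labelled cells (log2 change -0.31, SE 0.09, edgeR adjusted p = 0.0128). TGF-β1 libraries were below all untreated ones of their label. Such a gap was found for 21.3% of all genes tested in the floxed and 22.1% in the knockout label, against 6.38% and 4.26% of the 47 genes. Smc4 (chr3:69004738-69034623) fell from 130.5, 121 and 129 CPM to 111, 93.4 and 104 CPM in floxed-labelled cells (log2 change -0.30, SE 0.07, edgeR adjusted p = 0.00183). In knockout-labelled cells it stood at 125, 106 and 126 CPM untreated and 114, 104 and 111 CPM with TGF-β1, which overlapped, and its change of -0.12 (SE 0.07) did not pass the test. Kif23 (chr9:61915905-61946774) fell from 35.5, 33.7 and 37.6 CPM to 26.5, 23.0 and 27.7 CPM in knockout-labelled cells (log2 change -0.47, SE 0.12, edgeR adjusted p = 0.00575). In floxed-labelled cells it stood at 38.8, 27.9 and 36.2 CPM untreated and 30.0, 25.3 and 30.3 CPM with TGF-β1, groups that overlapped, and its change of -0.27 (SE 0.12) did not pass the test (edgeR adjusted p = 0.0974). For Incenp, the fall passed the test while the other 3 passenger complex genes, Aurkb, Birc5 and Cdca8 (the kinase, survivin and borealin), did not pass it in either label.

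**Figure D3:**
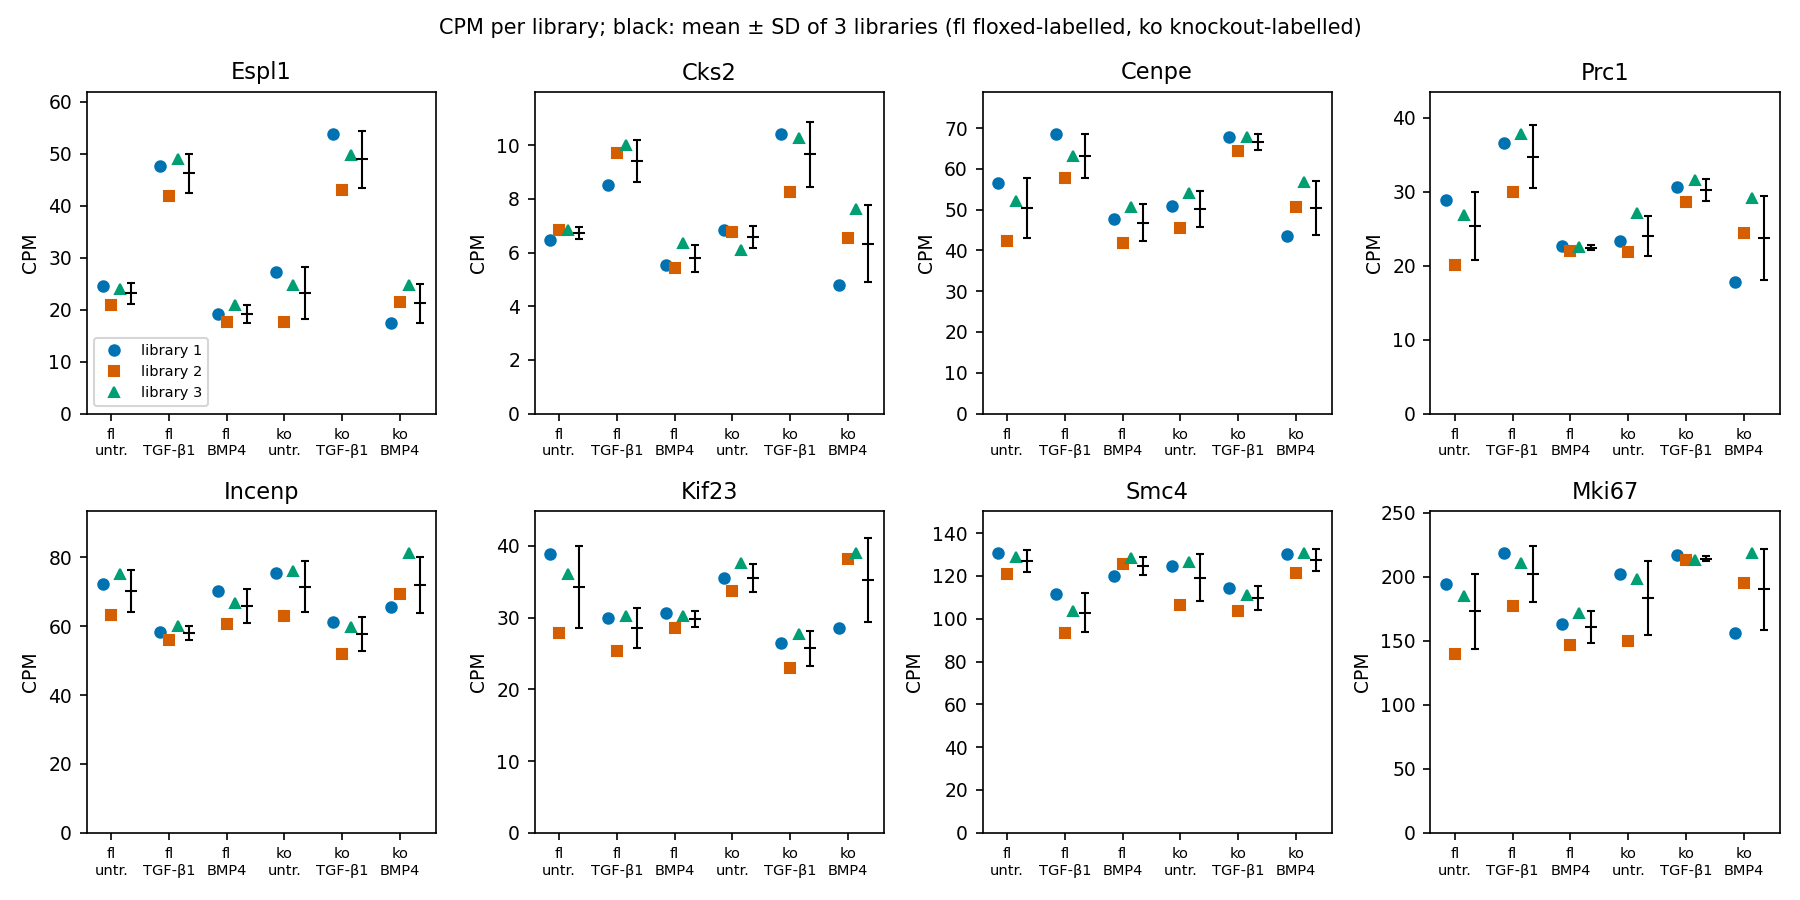
CPM (y axis, from 0) of the 7 genes called in a TGF-β1 comparison and of Mki67 in each library of the 6 groups (x axis), with black bars for mean ± SD of 3 libraries. Espl1 is near 20 to 25 CPM in most libraries without TGF-β1 and at 41.9 to 53.8 CPM in all 6 libraries with it.

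The genes most used as proliferation markers did not pass the test with TGF-β1 in either label, although Mki67 passed in both once the library number was a block (edgeR adjusted p = 0.0246 floxed and 0.0283 knockout). Mki67 was at 218, 177 and 211 CPM with TGF-β1 in floxed-labelled cells, and at 203, 150.2 and 198 CPM untreated and 217, 213 and 213 CPM with TGF-β1 in knockout-labelled cells (log2 change 0.22, SE 0.13 in both labels). Top2a was at 142, 99.9 and 132 CPM with TGF-β1 in floxed-labelled cells, and at 115, 87.5 and 116 CPM untreated and 136, 110.1 and 121 CPM with TGF-β1 in knockout-labelled cells. The groups overlapped for Top2a in both labels and for Mki67 in the floxed label. Ccnb1, cyclin B1, was at 32.4, 24.8 and 28.5 CPM untreated and 30.4, 23.8 and 26.4 CPM with TGF-β1 in floxed-labelled cells, and at 24.8, 19.8 and 26.0 CPM and 26.3, 27.0 and 28.6 CPM in knockout-labelled cells. Foxm1, the transcription factor of this gene group, was at 19.0, 15.4 and 16.0 CPM and 18.2, 14.2 and 17.5 CPM in floxed-labelled, and at 19.4, 15.0 and 22.2 CPM and 19.5, 16.7 and 20.6 CPM in knockout-labelled cells, with log2 changes of -0.02 (SE 0.14) and 0.00 (SE 0.15). Neither changed past the test.

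The mitotic kinases, survivin and Cdc20 did not pass the test with TGF-β1 either. Cdk1 was at 28.4, 22.4 and 26.9 CPM untreated and 29.5, 23.5 and 27.6 CPM with TGF-β1 in floxed-labelled cells, and at 24.1, 23.0 and 22.7 CPM and 28.0, 24.0 and 24.2 CPM in knockout-labelled cells. Plk1, the polo-like kinase, was at 19.7, 12.7 and 17.8 CPM and 21.1, 16.9 and 17.9 CPM in floxed-labelled, and at 19.5, 13.7 and 18.9 CPM and 21.1, 14.7 and 18.6 CPM in knockout-labelled cells. In both labels the libraries of Plk1 overlapped, and library 2 was the lowest. Birc5, survivin, was at 22.8, 17.2 and 24.1 CPM and 23.2, 20.2 and 23.5 CPM in floxed-labelled, and at 18.3, 17.0 and 21.1 CPM and 20.8, 17.7 and 22.0 CPM in knockout-labelled cells. Cdc20, the activator of the anaphase-promoting complex, was at 20.4, 17.0 and 23.5 CPM and 28.0, 21.6 and 21.03 CPM in floxed-labelled, and at 24.5, 16.7 and 20.05 CPM and 20.7, 20.4 and 20.5 CPM in knockout-labelled cells. Both overlapped between treatments. By role, the numbers called in the floxed label, where 17% of all genes were higher and 16% lower, ran from 0 of 4 spindle checkpoint genes and 0 of 6 spindle motors and microtubule proteins to 1 of 4 passenger complex genes. In the knockout label, at 17.6% and 17.1% of all genes, they ran from 0 in the same pair of roles and in chromosome structure to 1 of 4 passenger complex genes. No role had more than 1 gene called in either label.

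Libraries with the same number deviated together within a label, so the TGF-β1 counts were also made with the library number as a block within each label. This gave 8 genes higher and 4 lower in the floxed label, against 20.1% and 19.5% of all genes, and 11 higher and 2 lower in the knockout label, against 20.2% and 20.1%. The blocked fit added Smc2 (log2 change 0.31), Bub1 (0.31), Mki67 (0.23), Cdca3 (0.24), Kif23 (-0.26) and Pttg1 (-0.26) in the floxed label, where SMC2 is the condensin partner of SMC4 and BUB1 a checkpoint kinase. In the knockout label it added Bub1 (0.35), Prc1 (0.33), Kif2c (0.32), Smc2 (0.29), Cdca3 (0.29), Tpx2 (0.27), Cenpf (0.26) and Mki67 (0.23). With no filter on low counts (29506 genes) the members called higher were 7 in the floxed label, against 7.95% of all genes, and 15 in the knockout label, against 8.87%. In the filtered fit the share of members called higher was thus under the background without the block, and above it in the knockout label with the block. Without the filter it was above the background in both labels, but that background is not like the others. All 47 members pass the filter, while the 29506 genes include those that it removes. In the floxed label, all genes called higher were 2491 of 14684 with the filter and 2347 of 29506 without it. Between libraries of the same number, the mean log2 CPM of the 47 genes was higher with TGF-β1 by 0.04, 0.15 and 0.03 in the floxed and by 0.10, 0.19 and 0.09 in the knockout label, positive in 6 of 6. The myeloid progenitor list also summed higher with TGF-β1 (44.9 to 58.8 CPM against 28.7 to 38.6 CPM in the floxed label, 35.3 to 49.7 CPM against 27.9 to 36.3 CPM in the knockout label), and its part in the result was not tested.

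Single libraries decided several of the smaller TGF-β1 calls. In the floxed label the number of genes called higher fell from 4 to 2 without untreated library 2, to 2 without TGF-β1 library 1 and to 1 without TGF-β1 library 3. Prc1 and Cenpe lost their calls in each of these 3 cases, and Cks2 in the last (edgeR adjusted p = 0.0546, in a range of 0.00443 to 0.0546 over 12 alternatives). The number called lower was 1 without untreated library 1 or 3, without TGF-β1 library 1 or 2, and in the 15 libraries, with Incenp as the gene lost each time. The median of the 47 changes in the floxed label turned to -0.08 without untreated library 2 and to -0.04 without TGF-β1 library 1. Both fits kept the same-number partner of the library left out. Paired by number, the mean log2 CPM in that label was higher with TGF-β1 by 0.04, 0.15 and 0.03. In the knockout label the number called higher was 6 without TGF-β1 library 2, and the number called lower was 1 without untreated library 1 or 3 or TGF-β1 library 2. Without untreated library 2 it was 4. The changes of Espl1 in both labels, of Smc4 in the floxed label and of Cks2, Cenpe and Kif23 in the knockout label passed the test in all 12 alternatives run for each.

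Other cell cycle lists, fitted in the same way, give the setting of these changes. Of 46 genes of DNA replication and S phase, 13 were higher and 0 lower with TGF-β1 in the floxed label, and 12 higher and 0 lower in the knockout label, with medians of 0.30 and 0.17. All genes tested stood at 17% higher and 16% lower in the floxed and 17.6% and 17.1% in the knockout label, also for the lists that follow. With the library number as a block 23 and 18 S phase genes were higher, against 20.1% and 20.2% of all genes. Cdt1, which licenses replication origins, rose by 1.61 (SE 0.09, edgeR adjusted p = 7.03e-11) and 1.61 (SE 0.10, edgeR adjusted p = 9.73e-11) on the log2 scale, and Mcm6, a subunit of the replicative helicase, by 1.41 (SE 0.12, edgeR adjusted p = 1.88e-08) and 1.37 (SE 0.12, edgeR adjusted p = 3.36e-08). Between libraries of the same number the S phase mean was higher by 0.20 to 0.41 in the floxed and by 0.26 to 0.30 in the knockout label. Of 85 other G2/M and mitosis genes, 6 were higher and 4 lower in the floxed label, and 7 higher and 4 lower in the knockout label, and the block gave 12 higher in each label, with 6 and 4 lower. Among them Zwint, a kinetochore protein, rose by 0.57 (SE 0.06, edgeR adjusted p = 1.24e-07) and 0.65 (SE 0.06, edgeR adjusted p = 3.15e-08), and Psrc1, a spindle protein, fell by 0.90 (SE 0.15, edgeR adjusted p = 7.69e-05) and 0.97 (SE 0.16, edgeR adjusted p = 5.37e-05).

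Regulators of these genes changed in both directions. Of 22 genes of the E2F, RB, MuvB and NF-Y families, set against the same 17% and 16% (floxed) and 17.6% and 17.1% (knockout) of all genes, 8 were higher and 2 lower in the floxed label, and 7 higher and 3 lower in the knockout label. Nfya, the NF-Y subunit that contacts CCAAT, rose by 0.72 (SE 0.05, edgeR adjusted p = 1.66e-09) and 0.75 (SE 0.05, edgeR adjusted p = 9.27e-10), and Lin9, a MuvB subunit, by 0.90 (SE 0.08, edgeR adjusted p = 5.38e-08) and 0.97 (SE 0.09, edgeR adjusted p = 2.71e-08). Rbl2, the p130 pocket protein of the repressing complex, fell by 0.71 (SE 0.08, edgeR adjusted p = 8.74e-07) and 0.64 (SE 0.08, edgeR adjusted p = 3.44e-06). Of 16 subunits and partners of the anaphase-promoting complex, 2 were higher in the floxed and 3 in the knockout label and 0 lower (3 higher and 2 lower in each label with the block), led by Anapc15 at 0.71 (SE 0.11) and 0.74 (SE 0.12). Of 14 CDK inhibitors, G1 cyclins and kinases with Myc, 1 was higher and 6 lower in the floxed label, and 1 higher and 3 lower in the knockout label, where the block gave 7 lower. Myc rose by 1.13 (SE 0.15) and 0.88 (SE 0.15), and Cdk6, a G1 kinase, fell by 0.99 (SE 0.07) and 1.21 (SE 0.07).

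BMP4 changed none of the 47 genes past the test in either label. In the floxed label 0 genes were called, against 0% of all genes in each direction, and DESeq2 also called 0 of the 47. At an unadjusted p under 0.05 there were 3 genes, all lower, against 4.09% of all genes: Ccnb2 (log2 change -0.28, SE 0.10, edgeR adjusted p = 0.541), Kif2c, a microtubule depolymerase (-0.33, SE 0.14, edgeR adjusted p = 0.614), and Ccnb1 (-0.25, SE 0.11, edgeR adjusted p = 0.622). The median over the 47 genes was -0.17 and 45 of 47 changes were negative, where 50% of all genes were, but members share their libraries, so this is 1 difference between 3 and 3 libraries. Between libraries of the same number the mean log2 CPM differed by -0.28, 0.01 and -0.14, so 1 of 3 pairs showed no fall. In the 15 libraries the median was -0.08, with 38 of 47 negative, and leaving out single libraries moved it between -0.28 (without untreated library 2) and -0.06 (without untreated library 1). The most abundant genes, Mki67 at 163, 147 and 172 CPM and Smc4 at 119.8, 126 and 128 CPM with BMP4, had log2 changes of -0.11 (SE 0.13, edgeR adjusted p = 0.907) and -0.03 (SE 0.07, edgeR adjusted p = 0.964).

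The other genes followed library by library did not pass the test in floxed-labelled BMP4 cells either. Top2a was at 100.2, 91.1 and 110.1 CPM, Cdk1 at 22.8, 21.7 and 23.6 CPM and Ccnb1 at 23.5, 24.3 and 24.6 CPM. All 3 Ccnb1 libraries lay below all untreated ones, whereas Top2a and Cdk1 overlapped them. Such a gap downwards was found for 6.38% of the 47 genes and 6.66% of all genes tested. Plk1 was at 13.1, 13.5 and 14.4 CPM, Birc5 at 19.1, 18.5 and 18.9 CPM and Cdc20 at 15.7, 17.7 and 17.3 CPM, each within the range of the untreated libraries or overlapping it. The genes called with TGF-β1 were at 5.55, 5.43 and 6.38 CPM (Cks2), 47.7, 41.8 and 50.7 CPM (Cenpe), 22.7, 22.0 and 22.5 CPM (Prc1), 70.2, 60.6 and 66.7 CPM (Incenp) and 30.6, 28.6 and 30.3 CPM (Kif23). Of these, Cks2 lay below its untreated libraries without overlap, and its change of -0.21 (SE 0.15) did not pass the test.

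In the knockout label BMP4 also gave 0 calls among the 47 genes, against 0.129% of all genes higher and 0.443% lower, and 0 at an unadjusted p under 0.05, against 12.2%. DESeq2 called 0 there too. The median was 0.05, with 32 of 47 positive, where 49.7% of all genes were. The lowest unadjusted p values were those of Ube2c, the ubiquitin-conjugating enzyme of the anaphase-promoting complex (log2 change -0.22, SE 0.11, edgeR adjusted p = 0.429), and Cdca8 (0.23, SE 0.13, edgeR adjusted p = 0.525). Libraries of the same number differed by -0.30, 0.25 and 0.18, so the sign depended on the number, and the median was -0.08 without BMP4 library 3, -0.04 without untreated library 2 and 0.17 without BMP4 library 1. The log2 changes of the 2 labels had opposite signs for 32 of 47 genes, while 14 were negative and 1 positive in both. Across genes, which are not independent of one another, Pearson r was 0.32 and Spearman rho 0.26. The genes thus kept a weak common order between labels, with the medians apart. The difference between the responses had a median of 0.17 with 45 of 47 positive, where 51.4% of all genes were, and 0 genes passed the edgeR test (0% of all genes in each direction). In the 15 libraries that median was 0.11, with 40 of 47 positive. It was 0.06, with 35 positive, without knockout-labelled BMP4 library 3, 0.10 without knockout-labelled untreated library 2 and 0.11 without floxed-labelled untreated library 1, and 0.32 without knockout-labelled BMP4 library 1 or without floxed-labelled untreated library 2. At an unadjusted p under 0.05 there were 2 genes, against 5.71%: Kif2c (0.48, SE 0.20, edgeR adjusted p = 0.812) and Ccnb1 (0.36, SE 0.16, edgeR adjusted p = 0.833). Mki67 stood at 156, 195 and 218 CPM and Smc4 at 130.0, 122 and 131 CPM in these BMP4 libraries, with changes of 0.05 (SE 0.13) and 0.10 (SE 0.07). In Top2a the order was 90.3, 111 and 139 CPM and in Cks2 4.79, 6.54 and 7.63 CPM, with library 3 above all untreated libraries of the label for both genes, and library 1 below them for Cks2 but within their range for Top2a. Plk1 (12.5, 14.6 and 20.04 CPM), Birc5 (16.8, 19.8 and 25.6 CPM), Cenpe (43.5, 50.7 and 56.7 CPM) and Prc1 (17.7, 24.4 and 29.1 CPM) repeated that order. Kif23 (28.5, 38.2 and 39.0 CPM), Incenp (65.7, 69.3 and 81.2 CPM), Ccnb1 (22.9, 25.3 and 28.1 CPM), Cdk1 (23.1, 23.3 and 28.7 CPM) and Cdc20 (16.1, 18.6 and 21.02 CPM) also had library 1 lowest and library 3 highest. Of the other cell cycle lists, 0 genes were called with BMP4 in either label, except Cdk6, which fell by 0.34 in the knockout label (edgeR adjusted p = 0.0355); with the block 1 of the 16 anaphase-promoting complex genes was also lower in the floxed label.

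**Figure D4:**
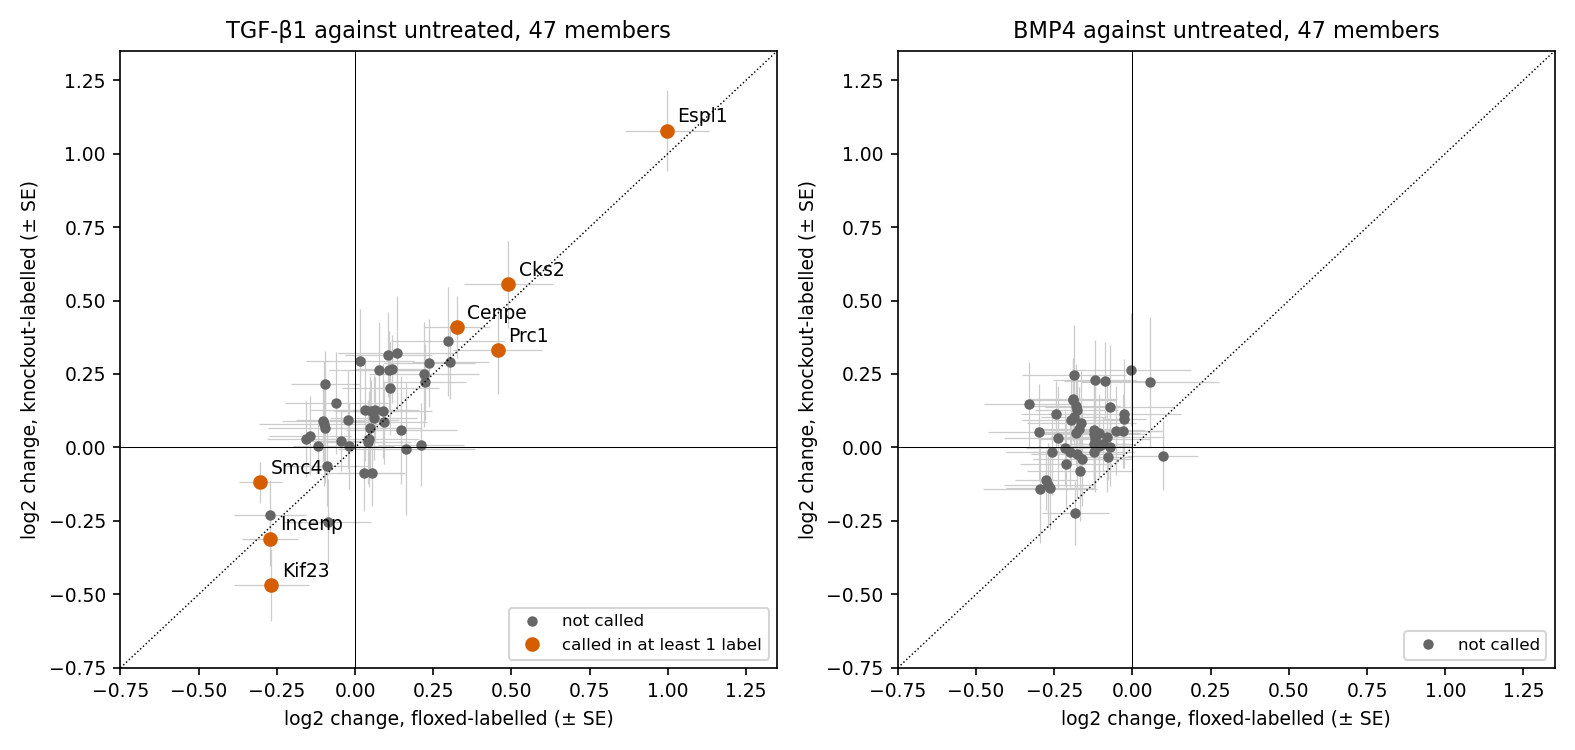
Log2 change of each of the 47 genes in floxed-labelled (x axis) and knockout-labelled cells (y axis), with SE as grey bars, for TGF-β1 (left) and BMP4 (right); orange points are called in at least 1 label and the dotted line marks equal changes. With TGF-β1, Espl1 lies at 1.00 and 1.08, far from the other genes, and with BMP4 most points lie left of 0 on the x axis and on both sides of 0 on the y axis.

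The knockout label itself changed none of the 47 genes past the test under any treatment. In untreated cells 0 were called, against 1.29% of all genes higher and 1.1% lower, and the median difference (knockout minus floxed) was -0.05. The lowest unadjusted p belonged to Ccnb1 (difference -0.28, SE 0.11, edgeR adjusted p = 0.186), the only one of the 47 under 0.05 before adjustment, where 17.5% of all genes were, followed by Cdk1 (-0.15, SE 0.10, edgeR adjusted p = 0.485). With TGF-β1, 0 were called, against 0.136% higher and 0.252% lower, and the median was 0.03, with the lowest unadjusted p for Ube2c (-0.18, SE 0.11, edgeR adjusted p = 0.53) and Prc1 (-0.20, SE 0.14, edgeR adjusted p = 0.616), and 0 genes under 0.05 before adjustment, where 12.5% of all genes were. In the 15 libraries the medians were 0.03 untreated and 0.11 with TGF-β1. Single libraries moved both medians to either side of 0. The untreated median was 0.03 without floxed-labelled library 1 and 0.00 without knockout-labelled library 2, but -0.16, with 45 of 47 negative, without floxed-labelled library 2, -0.12 without knockout-labelled library 1 and -0.09 without knockout-labelled library 3. The TGF-β1 median was -0.05 without floxed-labelled library 2, -0.02 without knockout-labelled library 1 and -0.01 without knockout-labelled library 3, but 0.10 without floxed-labelled library 1, 0.09 without knockout-labelled library 2 and 0.04 without floxed-labelled library 3. With no filter on low counts Ccnb1 was called lower in untreated cells (1 member, against 1.79% of all genes there; edgeR adjusted p = 0.0378, in a range of 0.0378 to 0.468 over 11 alternatives). DESeq2 called 0 of the 47 genes in each of these comparisons.

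With BMP4 the knockout-labelled cells had a median difference of 0.16 from the floxed-labelled ones, with 43 of 47 positive, where 51% of all genes were, and 0 genes were called, against 0.00681% of all genes higher and 0.0204% lower. Before adjustment 3 were higher and 1 lower at a p under 0.05, against 4.22% and 3.69% of all genes. Aurkb, the kinase of the passenger complex, differed by 0.44 (SE 0.14, edgeR adjusted p = 0.423) and Foxm1 by 0.41 (SE 0.15, edgeR adjusted p = 0.452). Foxm1 was at 15.5, 12.6 and 14.0 CPM in floxed-labelled and 15.7, 18.6 and 21.7 CPM in knockout-labelled BMP4 libraries, without overlap. Of the 47 genes 4.26% lay higher without overlap in this comparison, against 6.96% of all genes tested. Aurkb, Foxm1 and Mki67 were called higher only when no filter on low counts was used, among the alternatives run (3 members, against 0.451% of all genes there). Mki67 differed by 0.24 (SE 0.13, edgeR adjusted p = 0.672) and Smc4 by 0.03 (SE 0.07, edgeR adjusted p = 0.942). The median was 0.02 without knockout-labelled BMP4 library 3 and 0.28 without library 1 of that group, the pair of libraries at the ends of the spread described above. In the 15 libraries it was 0.16, with 42 of 47 positive.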

How the data were processed

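PolyA RNA of 18 libraries (6 groups of 3) was analysed. Per the submitters' processing notes, the tools included TopHat2 2.0.9, HTSeq 0.6.1 and Cufflinks 2.1.1 and the build was mm10 (GRCm38.p6); the strand setting is not given in the sources used here. The deposited table holds read counts per gene and FPKM made by the authors, per the file headers, and gene lengths; 78 further columns of per-sample values were not used. Counts were tested with edgeR 4.0.16 in R 4.3.3 (TMM factors 0.978 to 1.02, filterByExpr, quasi-likelihood F test, 1 mean per group, two-sided, Benjamini-Hochberg adjustment over 14684 genes). A gene was called at an adjusted p under 0.05, and "rose" and "fell" mean called. The biological coefficient of variation was 8.86%. CPM are TMM-scaled, and mean log2 CPM used a prior count of 2. FPKM serve only for levels between genes. The script was tested on simulated data.

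The genes, lists and roles were chosen with earlier results of these data known. Genes named with full statistics were the called ones (at most 6 in each direction), or, where none was called, the 2 most abundant and the 2 of lowest unadjusted p. Others were named after their values were seen. Outside the list, up to 2 called genes per list and direction could be named. Labels do not say that libraries came from separate animals or cultures, so p-values measure the spread between these libraries. No pair within a group was a repeat (chi-square per degree of freedom 3.56 to 27.4). A floor of 3 counts equals 0.122 to 0.198 CPM, for counting error only.

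Library numbers pair the samples within a label: deviations from group means, over genes with at least 10 CPM, correlated at 0.33 to 0.73 in all 18 pairs of the same number and label, against -0.34 to 0.23 in 27 pairs across labels. Alternatives were RLE scaling, no filter, DESeq2 1.42.0, the library number as a block, the 15 libraries and leaving out each library. Leaving out a library was done without the block, so its same-number partners stayed in the fit.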

Additional observations from a re-analysis of the deposited data

How the results depend on the processing

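Of 351 alternative values for the counts and medians, 330 stayed within a set limit. For counts the limit was 1.5 times, and counts that stayed at 0 are among the 330. For medians it was 1 SD of the libraries' mean log2 CPM within groups, whatever the sign. Some medians thus changed sign within it, such as the floxed TGF-β1 median (0.05, and -0.08 without untreated library 2). Without the filter on low counts (29506 genes), 7 genes (all genes 7.95%) were called higher with TGF-β1 in the floxed label (4 in the main analysis) and 15 (all genes 8.87%) in the knockout label (3), 1 was called lower in untreated knockout-labelled against floxed-labelled cells (0, Ccnb1) and 3 were called higher there with BMP4 (0, namely Mki67, Aurkb and Foxm1). The cause was not tested. With the replicate block within genotype label, TGF-β1 gave 8 higher and 4 lower in the floxed label and 11 higher in the knockout label; with the block over all groups it gave 5 higher in the knockout label. The block changed none of the BMP4 counts among the 47 genes, which stayed at 0. It was not run within label for the 3 comparisons between labels, where the number is nested in the label. In the 15 libraries, 1 gene was lower with TGF-β1 in the floxed label (2 in the main analysis). Fewer samples and the loss of these particular libraries cannot be told apart there. Leaving out each library gave 1 to 5 higher and 1 to 3 lower with TGF-β1 in the floxed label, and 3 to 6 higher and 1 to 4 lower in the knockout label. The other settings moved none of these counts by over 1.5 times. DESeq2 gave no adjusted p for up to 3 of the genes. Depth limits the least abundant genes: Ttk had as few as 76 counts.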
